A study of Mus musculus with 12 samples.

Results

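The hearts of mice made diabetic with streptozotocin (DM) were set against the hearts of mice injected with vehicle (NC), to ask which genes of the myocardium differ in long-standing insulin deficiency. The comparison used 8 of the 12 arrays of the series, the 4 titled DM and the 4 titled NC, each array being 1 mouse per the series design. Streptozotocin poisons pancreatic beta cells, the source of insulin, and so models a diabetes of insulin lack, not of obesity. Both groups received intraperitoneal injections for 5 days, and the DM mice were those whose fasting glucose had reached 16.7 mM or more after 2 weeks. Tissue is labelled 6 months in every group, without saying whether this is an age or a time. The remaining 4 arrays (AngIV) came from mice made diabetic in the same way and then infused with angiotensin IV, a peptide of the angiotensin system, (2.88 mg/kg/day, weeks 8 to 24). They entered the fit to estimate the spread and are quoted only as values. Strain, sex and the hour of tissue collection are not given in the sources used here. A disease state tag calls the 4 NC samples diabetic, against their titles, source names and the series design, and was not used. The series title names autophagy driven by the transcription factor FoxO1 as the process of interest.

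A heart burns mainly fatty acids and lactate, and smaller amounts of glucose, ketone bodies and amino acids. Insulin favours glucose uptake and, through the kinase AKT, keeps FoxO transcription factors out of the nucleus. When insulin is lacking, fatty acids from fat tissue activate the nuclear receptor PPAR-alpha in heart muscle, which raises genes of fatty acid use, and FoxO factors raise genes of atrophy and autophagy. The heart also has a circadian clock of its own, in which BMAL1 (gene Arntl) and CLOCK switch on genes whose products, among them the PER, CRY and REV-ERB proteins, switch BMAL1 and its targets off again.

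Values are log2 signals of an Affymetrix array, and a difference of 1 on this scale is a doubling. Of 19505 genes on the array, the 13653 left after dropping the dimmest 30% were tested with limma, and those with an adjusted p under 0.05 are referred to as called. Over the 8 arrays, 26.2% of the variance fell on the first principal component, which placed DM mice 1 to 4 at -20.3, -13.3, -1.63 and -1.83 and NC mice 1 to 4 at -1.77, -2.54, 25.3 and 16.1, so that DM mice 1 and 2 lay outside all NC mice and DM mice 3 and 4 lay beside NC mice 1 and 2. Markers of ventricular muscle were bright on all 8 arrays, with a list mean of 10.7 to 10.9 in NC and 10.7 to 10.8 in DM. Markers of the atria were not evenly present: Myl7, the atrial myosin light chain, read 10.1, 4.28, 7.90 and 3.72 in NC mice 1 to 4 and 8.86, 9.68, 3.97 and 8.10 in DM mice 1 to 4. Of 6 tested markers of lymphocytes and 4 of neutrophils and mast cells, 0 lay in both groups above the level that 95% of the negative control probe sets stay under (5.48 in NC and 5.53 in DM). Signals under that level are called background here. In tissue of this kind, fewer cells of a type and less RNA per cell cannot be told apart.

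Limma called 3 genes of 13653 (0.022%), all lower in DM, with 0 higher. They were Arntl, Abat and Epha4. At an unadjusted p under 0.05 there were 767 genes higher (5.62%) and 694 lower (5.08%), together 1461 (10.7%), and members of lists are counted by this same threshold below. The 4 DM values lay above all 4 NC values for 388 genes (2.84%) and below them for 335 (2.45%), together 723 genes (5.3%). The change was positive in 49.6% of genes, with a median of -0.00. These shares are the background for every list that follows.

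Arntl encodes BMAL1, without which the clock does not run. Its log2 signal was 5.72, 5.94, 5.89 and 5.57 in NC mice 1 to 4 and 4.44, 4.21, 4.51 and 4.44 in DM mice 1 to 4. The lowest control lay above the highest diabetic heart by far more than the spread within either group (SD 0.17 in NC and 0.13 in DM, n = 4). The gene fell by 1.38 (SE 0.13; limma adjusted p = 0.000596). All 4 DM values were at background, so no fold is given.

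Abat encodes the mitochondrial enzyme that breaks down GABA, a transmitter of the nervous system that many tissues also make and degrade as an amino acid. Control hearts read 7.06, 7.46, 7.46 and 7.36, and diabetic hearts 5.15, 5.16, 5.66 and 5.95. DM mice 1 and 2 were the lowest and DM mouse 4 the nearest to the controls, and the groups did not overlap. The difference was -1.86 (SE 0.22; limma adjusted p = 0.0031), the largest drop among genes whose groups did not overlap. Its DM mean of 5.48 was at background, so no fold is given.

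Epha4 encodes a receptor tyrosine kinase for ephrins, which signal between touching cells. It read 6.54, 6.62, 6.81 and 6.62 in control hearts and 5.66, 5.63, 5.40 and 5.80 in diabetic ones. All 4 DM hearts lay well below the controls, with DM mouse 3 the lowest. The gene fell by 1.03, which is 2.04-fold (SE 0.13; limma adjusted p = 0.00716). Of the 20 tested genes of GABA breakdown, Eph receptors and ephrins, Abat and Epha4 were the 2 below NC with an unadjusted p under 0.05, against 1 above NC. Over all genes the shares were 5.08% lower and 5.62% higher. That list was written with earlier results of these data known, so the place of Abat and Epha4 in it is no separate finding.

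The 3 genes were called under each of 18 other settings of the analysis, the omission of any 1 mouse included. The number of calls was less steady: it reached 30 without DM mouse 4, 10 without NC mouse 1, 9 without DM mouse 3 and 5 without NC mouse 2. The balance of directions turned with the longer lists: of the 30 calls without DM mouse 4, 21 were higher and 9 lower, and of 24 calls among genes above the negative controls, 17 were higher and 7 lower. Without the 5 arrays that carried atrial signal, which leaves DM mouse 3 against NC mice 2 and 4 with the AngIV arrays for the spread, limma called 0 genes; the lone DM mouse is then assumed to vary like the other groups. Arntl, Abat and Epha4 still read -1.24, -1.75 and -1.23 there, at unadjusted p-values of 0.00119, 0.000981 and 0.000762 (limma adjusted p = 0.852 for each). With the mean of the atrial markers as a covariate 5 genes were called, these 3 with Mt2 and Zbtb16.

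**Figure D1:**
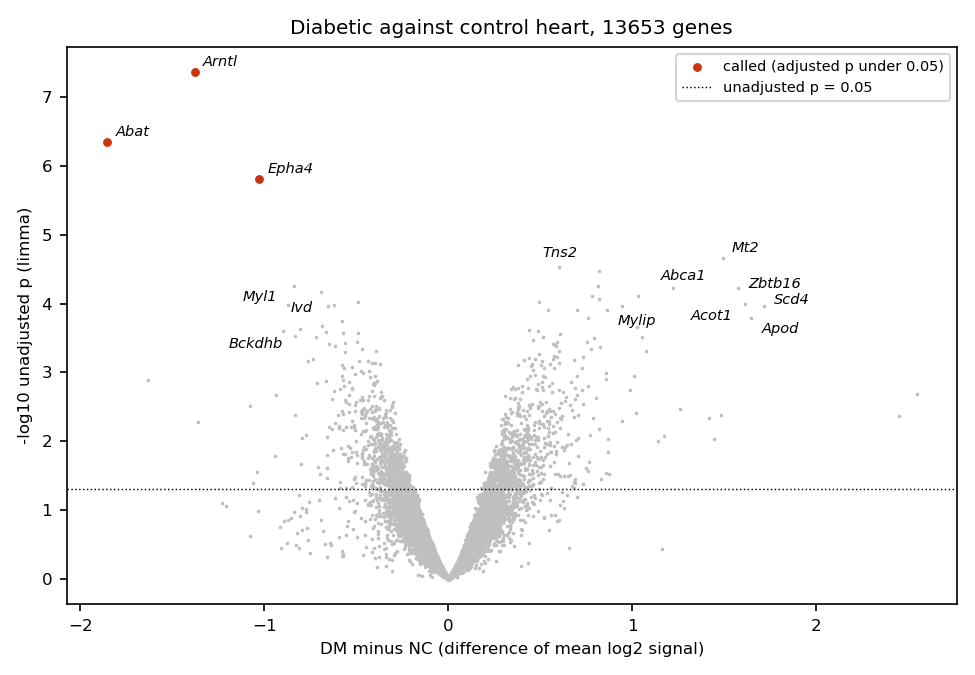
Each of the 13653 genes tested, by its difference of mean log2 signal between DM and NC (x axis) and the -log10 of its unadjusted limma p (y axis). The 3 called genes, in red, all lie on the left, while Mt2, Zbtb16, Acot1, Scd4 and Apod are among the larger positive differences, which did not pass the adjustment.

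The clock genes are shown with their start sites because Arntl led the whole comparison and because its partners and targets stood on opposite sides. Promoter windows of 250 bases before to 50 after a RefSeq start (GRCm38.p6) were given for 19 of the 24 clock genes on the array, 27 windows in all, and 3 motifs were searched on both strands. These were the E-box CACGTG, the site of BMAL1 and CLOCK, which reads the same on both strands, the D-box TTATGNAA, the site of DBP and TEF and of their opponent NFIL3, and TAGGTCA, the core of the element that ROR factors activate and REV-ERB factors repress. Over all 32851 windows of this length 7.15% held an E-box, 3.38% a D-box and 2.61% the ROR core. By gene, an E-box was found for Bhlhe41, Ciart, Cry1, Per1 and Tef. A D-box was found for Per1 and Per3, and the ROR core for Arntl and Nfil3. The shares above are by window, and some genes had several windows. A further window of Arntl and of Per1 held no motif, and neither did the windows of Dbp, Nr1d1 and Nr1d2. Motifs are in capitals, 5′ to 3′ on the strand of the gene. For Arntl a stretch of 30 bases is shown (chr7:113207529-113207558, plus strand), whose ROR core begins 31 bases into the transcript. For Ciart, a repressor of the clock, the 250 bases before its start are shown (chr3:95882229-95882478, minus strand), with 3 E-boxes at -116, -58 and -44. For Per3, a period gene, the 250 bases before its start are shown (chr4:151044666-151044915, minus strand), with 2 D-boxes at -205 and -158. A match is a stretch of letters, not a measured site.
Arntl: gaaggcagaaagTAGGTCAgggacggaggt
Ciart: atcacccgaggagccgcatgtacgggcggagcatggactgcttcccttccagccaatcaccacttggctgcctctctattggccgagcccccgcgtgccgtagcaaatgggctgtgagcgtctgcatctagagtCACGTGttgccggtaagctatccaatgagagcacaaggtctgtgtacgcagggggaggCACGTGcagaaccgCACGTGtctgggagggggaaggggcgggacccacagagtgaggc
Per3: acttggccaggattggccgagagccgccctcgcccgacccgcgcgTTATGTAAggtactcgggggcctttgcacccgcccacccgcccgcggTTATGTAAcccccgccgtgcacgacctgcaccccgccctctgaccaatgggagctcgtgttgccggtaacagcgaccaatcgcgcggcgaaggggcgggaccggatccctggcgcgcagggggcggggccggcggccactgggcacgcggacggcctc

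The activating arm of the clock was low in diabetic hearts. The hour of tissue collection, on which levels of circadian genes depend, is not given, and a difference in hour between groups was not tested. Of 16 core clock genes tested, 3 had an unadjusted p under 0.05 with a lower level in DM, the 3 activators Arntl, Clock and Npas2, each with groups that did not overlap. Clock, the partner of BMAL1, read 7.75, 7.83, 7.87 and 7.79 in control hearts and 7.46, 7.23, 7.44 and 7.54 in diabetic ones. Every DM heart lay under every control, by a mean of 0.39 (log2 change -0.39, SE 0.10; limma adjusted p = 0.167). Npas2, which can stand in for CLOCK, was at background in both groups, at 4.13 to 4.39 in NC and 3.64 to 4.08 in DM.

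Of the same 16 core clock genes, 6 lay above NC with an unadjusted p under 0.05, among them the repressors Per2, Per3, Cry2, Nr1d2 and Ciart, and the median change was 0.32 over the list, activators included. Per3 read 5.56, 4.93, 5.39 and 5.56 in NC and 6.31, 6.46, 6.03 and 5.92 in DM. Its groups did not overlap (log2 change 0.82, SE 0.15; limma adjusted p = 0.0681), and the NC mean lay at background. Nr1d2, which encodes REV-ERB-beta, a repressor of Arntl, read 6.91, 7.13, 7.38 and 7.26 in NC and 7.81, 7.57, 7.63 and 7.64 in DM. Again the groups did not overlap (log2 change 0.49, SE 0.11; limma adjusted p = 0.123). Per2 had 4.38 to 4.80 in NC and 5.02 to 5.42 in DM, near background in both. Ciart, with its 3 E-boxes, read 4.16, 3.76, 3.89 and 5.37 in NC and 4.43, 5.50, 6.12 and 6.16 in DM. NC mouse 4 stood within the diabetic range and DM mouse 1 near the controls, so the groups overlapped (log2 change 1.26, SE 0.36; limma adjusted p = 0.223). Cry2, a cryptochrome, had a log2 change of 0.34 with overlapping groups.

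Not every repressor stood higher. Nr1d1, which encodes REV-ERB-alpha and cycles most steeply of the pair, read 6.74, 7.77, 7.12 and 7.35 in NC and 6.71, 7.15, 7.77 and 7.50 in DM. The groups lay over each other, with a 95% interval of the difference from -0.46 to 0.54. For Per1 the interval was -0.15 to 0.58. For Cry1, the other cryptochrome, at background in both groups, it was -0.31 to 0.34.

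Genes that the clock drives directly stood higher as well. Of 8 output genes tested 7 had a positive change, 6 of these passed an unadjusted p of 0.05, and the median was 0.45. Dbp, a transcription factor driven by BMAL1 and CLOCK through E-boxes, read 7.82, 8.17, 8.58 and 8.77 in NC and 8.38, 9.18, 9.69 and 9.56 in DM. Only DM mouse 1 lay within the range of the controls (log2 change 0.87, SE 0.29; limma adjusted p = 0.29). Tef, of the same family, read 4.36 to 4.73 in NC and 5.02 to 5.31 in DM, all at background. Usp2, a ubiquitin protease, and Wee1, a kinase that holds back cell division, had log2 changes of 0.47 and 0.41. Wee1 stood at 6.48 in DM mouse 1 and at 5.88 to 5.96 in the other 3. Nfil3, the factor that opposes DBP at the D-box, fanned out in DM, with 5.75, 5.24, 4.84 and 4.58 against 5.20 to 5.35 in NC.

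In the AngIV hearts, which were diabetic too, Arntl lay at 3.52 to 4.103, Clock at 6.99 to 7.28, Per3 at 6.39 to 6.74 and Nr1d2 at 7.80 to 8.07. Leaving out single arrays gave 4 to 7 core clock genes higher and 5 to 6 output genes. On the 3 arrays without atrial signal 2 output genes were higher.

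**Figure D2:**
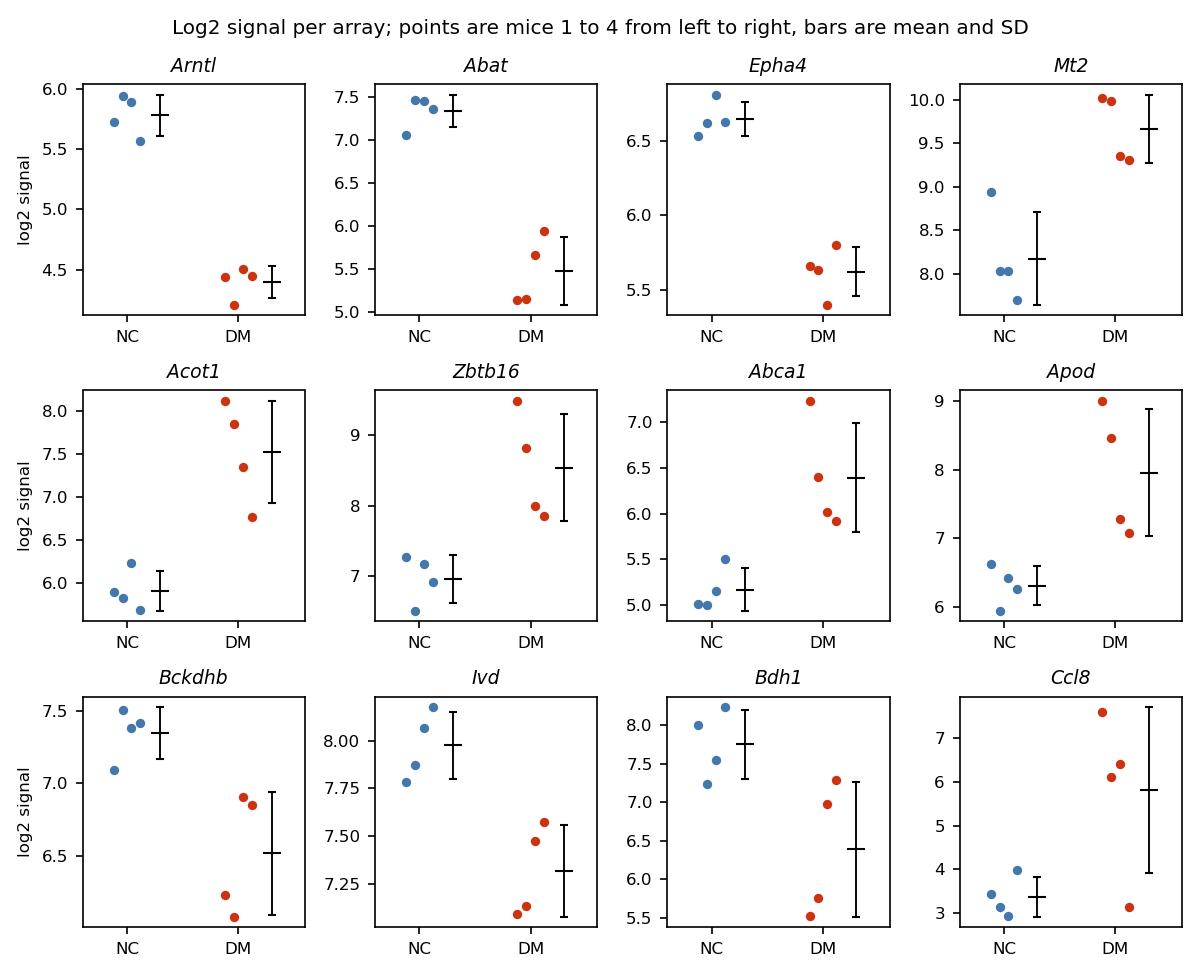
Log2 signal (y axis, a separate scale in each panel that does not start at 0) of 12 genes in the 4 NC (blue) and 4 DM (red) mice, mice 1 to 4 from left to right, with the mean and SD of each group as a bar. The groups of Arntl, Abat and Epha4 do not overlap, and for Abat, Mt2, Acot1, Zbtb16, Abca1, Apod, Bckdhb and Bdh1 DM mice 1 and 2 lie farther from the controls than DM mice 3 and 4.

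The next 19 genes by p shared a limma adjusted p of 0.0681. Of the 40 genes of smallest p, 23 were higher and 17 lower in DM, and 18 lay above the negative controls in both groups. The groups did not overlap for 39 of these 40 genes, against 5.3% of all genes, a separation that choosing by p largely builds in.

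Several of them answer to glucocorticoids, the adrenal hormones of stress and fasting. Mt2, a metallothionein that binds zinc and copper, read 8.94, 8.03, 8.03 and 7.70 in control hearts and 10.02, 9.98, 9.35 and 9.31 in diabetic ones. All DM hearts were above the highest control, NC mouse 1 (log2 change 1.49, SE 0.24; limma adjusted p = 0.0681). Its neighbour and close relative Mt1 read 9.69, 9.87, 9.71 and 9.72 in NC and 10.78, 10.57, 10.34 and 10.10 in DM. The groups did not overlap and the diabetic hearts were spread out (log2 change 0.70, SE 0.14; limma adjusted p = 0.0689). The 2 genes are alike in sequence, and cross-hybridisation between them was not tested.

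Zbtb16, a zinc finger transcription factor (PLZF), read 7.26, 6.51, 7.16 and 6.91 in NC and 9.48, 8.82, 7.99 and 7.85 in DM. The groups did not overlap, and DM mice 1 and 2 stood highest (log2 change 1.57, SE 0.28; limma adjusted p = 0.0681). Fkbp5, a chaperone of the glucocorticoid receptor and one of its best known targets, read 6.35, 4.88, 5.93 and 5.77 in NC and 8.69, 7.76, 6.02 and 6.24 in DM. Far above the controls stood DM mice 1 and 2, while DM mice 3 and 4 were within their range (log2 change 1.44, SE 0.48; limma adjusted p = 0.29). Cebpd and Klf9, further transcription factors of the response, had log2 changes of 1.02 and 0.43, both with overlapping groups.

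Of the 22 tested genes of the glucocorticoid list, 17 had a positive change, and the median was 0.35. By unadjusted p 9 were higher and 0 lower, against 5.62% and 5.08% of all genes. The list includes Pdk4 and Klf9, which also stand in other lists. Its mean lay 1.01, 0.59, 0.21 and 0.13 above the NC mean in DM mice 1 to 4, and control mice lay from -0.20 to 0.20. Leaving out single arrays gave 6 to 10 genes higher, and 4 remained at this threshold on the 3 arrays without atrial signal.

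Apod, a lipid-binding apolipoprotein, read 6.62, 5.94, 6.42 and 6.26 in NC and 8.998, 8.46, 7.28 and 7.08 in DM. The groups did not overlap (log2 change 1.65, SE 0.33; limma adjusted p = 0.0829). Tns2, which links integrins to the cytoskeleton, was tight in both groups, at 7.22 to 7.36 in NC and 7.71 to 8.13 in DM (log2 change 0.60, SE 0.10). Tspan4, a tetraspanin of the cell membrane, had 5.45 to 5.65 in NC and 6.13 to 6.73 in DM. Cdk6, a kinase of the cell cycle, had 5.50 to 5.86 in NC and 6.10 to 6.82 in DM. Myl1, a myosin light chain of fast skeletal muscle, stood on the low side, at 7.60 to 7.96 in NC and 6.75 to 7.15 in DM. Each of these pairs of groups was free of overlap, at a limma adjusted p of 0.0681.

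Fuel genes split by substrate: genes of fatty acid use stood higher in diabetic hearts, and genes that break down branched-chain amino acids stood lower, as did Bdh1 and Oxct1 of ketone body use. No member of these lists was called.

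Branched-chain amino acids (leucine, isoleucine and valine) are first stripped of their amino group by BCAT2 and then oxidised by the BCKDH complex and a chain of mitochondrial enzymes. All 18 genes of this pathway were tested, all 18 had a negative change, 12 of these passed an unadjusted p of 0.05 (66.7%, against 5.08% of all genes) and 0 higher. The groups did not overlap for 8 of them, against 2.45% of all genes, and the median change was -0.32 against -0.00.

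Bckdhb, which encodes a catalytic subunit of the BCKDH complex, read 7.09, 7.50, 7.38 and 7.42 in NC and 6.23, 6.08, 6.91 and 6.85 in DM. DM mice 1 and 2 were the lowest, and no diabetic heart reached a control (log2 change -0.83, SE 0.18; limma adjusted p = 0.1). Ivd, isovaleryl-CoA dehydrogenase of the leucine branch, read 7.79, 7.87, 8.06 and 8.18 in NC and 7.09, 7.13, 7.48 and 7.57 in DM. Here too the groups were apart (log2 change -0.66, SE 0.13, a 1.58-fold difference; limma adjusted p = 0.0681). Dbt, the core subunit of the BCKDH complex, read 7.31, 7.35, 7.63 and 7.54 in NC and 6.77, 6.66, 7.11 and 7.05 in DM. The lowest were again DM mice 1 and 2, and the groups did not overlap (log2 change -0.56, SE 0.12; limma adjusted p = 0.104).

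The rest of the chain followed the same side. Acadsb, which acts on the isoleucine branch, had 7.86 to 8.17 in NC and 7.42 to 7.78 in DM. Bcat2, the first enzyme, had 7.03 to 7.44 in NC and 6.61 to 6.96 in DM. Ppm1k, the phosphatase that switches the BCKDH complex on, had 7.92 to 8.33 in NC and 7.51 to 7.89 in DM. Mccc1 and Pcca, biotin-dependent carboxylases downstream, had log2 changes of -0.42 and -0.46 without overlap. Bckdha, the partner of Bckdhb, had -0.25 with overlapping groups, and Bckdk, the kinase that switches the complex off, had -0.17 (95% interval -0.40 to 0.05).

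The mean of the 18 genes lay at -0.42, -0.55, -0.24 and -0.23 from the NC mean in DM mice 1 to 4, and NC mice lay from -0.14 to 0.12. All 4 diabetic hearts were thus under all 4 controls. The list level was 7.33 to 7.58 in NC, 6.92 to 7.24 in DM and 7.32 to 7.45 in AngIV. Without any single array 9 to 13 genes were lower, and on the 3 arrays without atrial signal 4 were.

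Ketone bodies enter oxidation through BDH1 and OXCT1. Of 4 genes tested, these 2 were lower at an unadjusted p under 0.05. Oxct1, the rate-setting transferase, was nearly constant in control hearts at 10.42, 10.44, 10.46 and 10.47, and read 9.52, 9.37, 10.19 and 10.29 in DM. All DM hearts were below all controls, and DM mice 1 and 2 were the lowest (log2 change -0.60, SE 0.18; limma adjusted p = 0.228). Bdh1 read 8.00, 7.23, 7.54 and 8.23 in NC and 5.53, 5.76, 6.97 and 7.29 in DM. DM mouse 4 overlapped with the lowest control (log2 change -1.36, SE 0.42; limma adjusted p = 0.245). Acat1, the last enzyme of the path, had 9.65 to 9.76 in NC and 9.62 to 9.81 in DM, and Slc16a1, a transporter of lactate and ketone bodies, had 8.54 to 8.80 in NC and 8.68 to 8.96 in DM.

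Fatty acid genes and PPAR-alpha targets stood on the other side. Of 39 tested, 34 had a positive change, 19 were higher (48.7%, against 5.62% of all genes) and 2 lower by their unadjusted p. Groups did not overlap for 16, all higher, against 2.84% of all genes, and the median change was 0.23. Without DM mouse 1 the count of higher genes was 12, without the other single arrays 13 to 23, and on the 3 arrays without atrial signal 3.

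Acot1, a cytosolic thioesterase that frees fatty acids from CoA, read 5.90, 5.82, 6.23 and 5.68 in NC and 8.12, 7.85, 7.35 and 6.77 in DM. The groups did not overlap and the diabetic hearts spread over more than 1 unit (log2 change 1.61, SE 0.31; limma adjusted p = 0.0681). Its mitochondrial neighbour Acot2 read 8.03, 7.95, 8.20 and 7.88 in NC and 9.76, 9.15, 8.96 and 8.48 in DM, with the DM mice in the same order. The 2 genes are near copies of each other, and cross-hybridisation between them was not tested.

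Pdk4, the kinase that shuts pyruvate out of oxidation, read 8.03, 8.44, 8.36 and 7.32 in NC and 10.31, 9.73, 9.18 and 8.58 in DM. Ucp3, a mitochondrial carrier that follows fatty acid supply, read 6.43, 7.14, 7.07 and 5.98 in NC and 8.68, 8.31, 7.98 and 7.57 in DM. For both, all diabetic hearts lay above all controls, but NC mouse 4 stood low and DM mice 1 to 4 differed widely (log2 changes 1.41, SE 0.42, and 1.48, SE 0.44; limma adjusted p = 0.233 and 0.228).

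Genes of fat handling and entry differed by less. Pnpla2, the lipase that opens lipid droplets, had 9.64 to 9.85 in NC and 10.08 to 10.61 in DM (limma adjusted p = 0.106). Cpt1a, the liver form of the carnitine shuttle's first enzyme, had 6.05 to 6.59 in NC and 6.72 to 7.48 in DM, and Cpt1b, the muscle form, 9.50 to 9.70 and 9.76 to 10.06. Fabp4, a fatty acid carrier of the small vessels, was tight at 10.72 to 10.89 in NC and 11.14 to 11.35 in DM (limma adjusted p = 0.0984). Plin2, which coats lipid droplets, overlapped by DM mouse 4 alone, at 6.68 against a highest control of 6.73. Decr1, an auxiliary enzyme for unsaturated fats, and Ppargc1a, a co-activator of mitochondrial genes, had log2 changes of 0.47 and 0.42.

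Within the spiral of beta-oxidation itself the picture was mixed. Echs1, the enoyl-CoA hydratase, was on the low side (log2 change -0.31, SE 0.11). Acadl and Acadvl, the dehydrogenases of long and very long chains, were on the high side (log2 changes 0.32, SE 0.11, without overlap, and 0.35, SE 0.14, with overlap; limma adjusted p = 0.32 and 0.379). Of the activating enzymes, Acsl6, a minor acyl-CoA synthetase at background in DM, was on the low side. Ppara, the gene of the receptor, differed by -0.18 (95% interval -0.45 to 0.09).

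**Figure D3:**
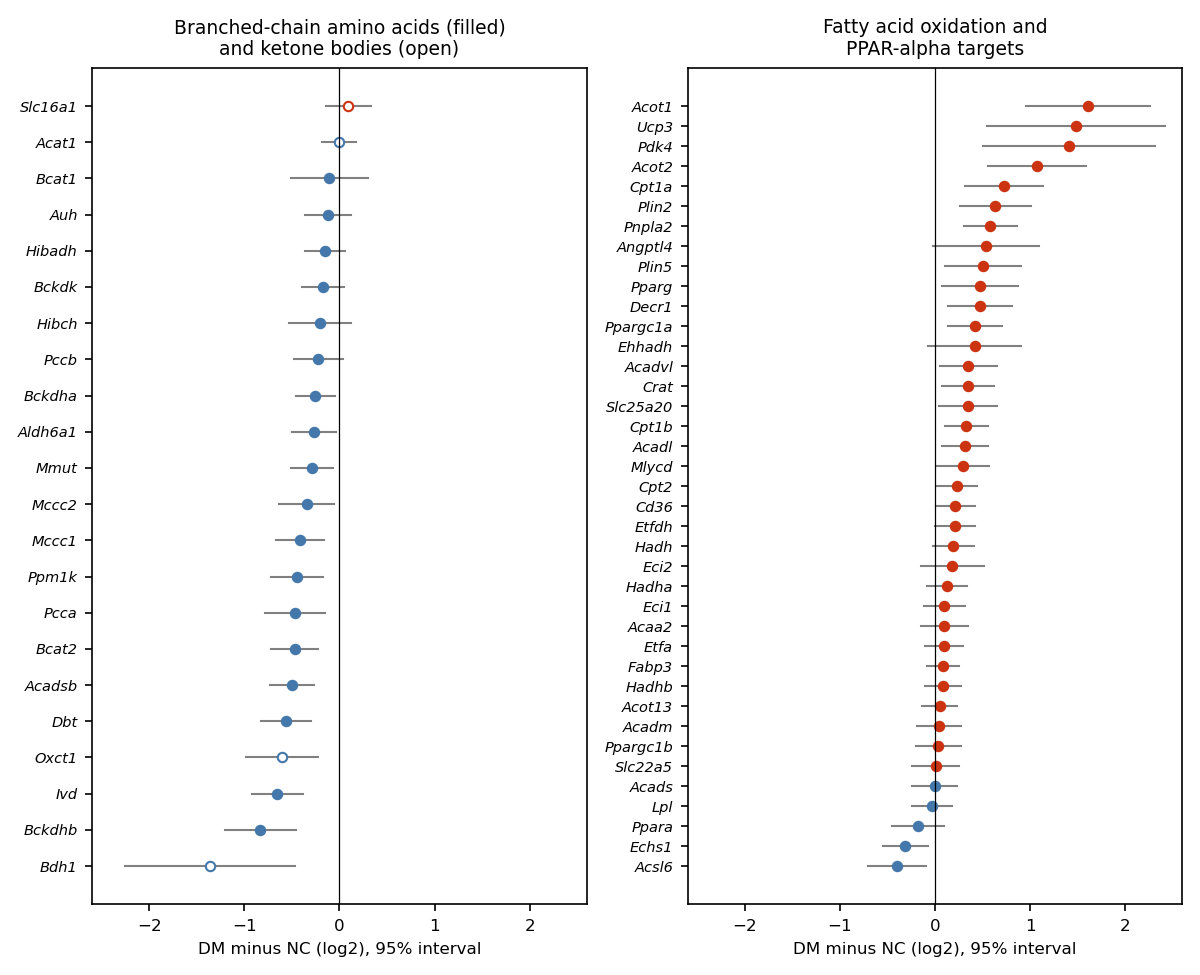
Difference between DM and NC on the log2 scale (x axis, points, with 95% intervals of the limma fit as lines) for each tested gene of branched-chain amino acid breakdown (filled, left), ketone body use (open, left) and fatty acid use (right), red where positive and blue where negative. All 18 branched-chain genes lie left of 0, and 34 of 39 fatty acid genes lie right of it.

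Glucose genes had no common side. Of 26 tested, 4 were higher and 4 lower by unadjusted p, with a median of -0.06, and the lower ones numbered 2 without DM mouse 1 or NC mouse 3. Slc2a1, the basal glucose transporter, read 6.63, 6.44, 6.62 and 6.72 in NC and 5.66, 6.05, 6.37 and 6.47 in DM. DM mouse 4 overlapped with the lowest control (log2 change -0.46, SE 0.17; limma adjusted p = 0.325). Slc2a4, the insulin-sensitive transporter, had 7.85 to 8.13 in NC and 7.69 to 7.99 in DM. The hexokinases lay on opposite sides: Hk2, the insulin-induced form, had a log2 change of -0.45 with overlap, and Hk1, the constitutive form, 0.30 without it. Eno3, the muscle enolase, had -0.46. Aldoc and Pfkfb3 were higher without overlap but at background in both groups.

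Genes of the mitochondrial core were close to level. Of 28 genes of pyruvate entry and the TCA cycle 1 was higher and 1 lower, and of 40 subunits of oxidative phosphorylation 0 were higher and 2 lower, with medians of -0.03 and -0.02. These shares, 3.57% each way and 5.00% lower, are at or under the background, and leaving out single arrays gave 0 to 3 genes in either direction.

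Lipid genes under the sterol sensors LXR and SREBP2 lay on opposite sides. Abca1, the cholesterol exporter and a classic LXR target, read 5.01, 5.01, 5.16 and 5.50 in NC and 7.23, 6.40, 6.02 and 5.92 in DM. All diabetic hearts were above all controls, whose mean was at background (log2 change 1.22, SE 0.22; limma adjusted p = 0.0681). Mylip, another LXR target, which degrades the LDL receptor, read 6.56, 6.70, 6.67 and 6.32 in NC and 8.07, 7.67, 7.23 and 7.06 in DM. It too had no overlap (log2 change 0.94, SE 0.18; limma adjusted p = 0.0681). Scd4, the heart's stearoyl-CoA desaturase, read 4.79, 5.28, 5.52 and 4.47 in NC and 7.69, 6.57, 6.67 and 5.98 in DM, again without overlap. Its NC mean was also at background.

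Of 18 genes of LXR targets and fatty acid synthesis 5 were higher and 0 lower by unadjusted p. Without NC mouse 1, 3 were. Of 19 genes of sterol synthesis 7 were lower and 1 higher, and the groups did not overlap for 5 of the lower ones. Srebf2, the gene of the regulator SREBP2, read 6.91, 7.02, 6.86 and 6.92 in NC and 6.48, 6.65, 6.74 and 6.60 in DM. The groups were apart by a small step (log2 change -0.31, SE 0.09; limma adjusted p = 0.222). Hmgcs1, the first committed enzyme, had -0.36 with overlap, and Msmo1 and Cyp51, later enzymes, lay at background. Hsd17b7, which acts in the same route, was the one on the higher side (log2 change 0.49, SE 0.15). Only 6 of the 19 lay above the negative controls in both groups, and on the 3 arrays without atrial signal 1 gene was lower.

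The FoxO genes bear on the process the series title names. Of 36 FoxO factors and FoxO-regulated genes tested, 30 had a positive change, and the median was 0.23. By unadjusted p 16 were higher (44.4%, against 5.62% of all genes) and 1 lower. Without DM mouse 2 the count was 10, without other single arrays 12 to 17, and on the 3 arrays without atrial signal 1. The mean of the list lay 0.48, 0.41, 0.11 and 0.10 above the NC mean in DM mice 1 to 4, and NC mice lay from -0.05 to 0.04.

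Pik3ip1, which restrains PI3 kinase, read 7.95, 6.995, 7.52 and 7.61 in NC and 8.76, 8.91, 8.14 and 8.36 in DM. No diabetic heart reached down to a control (log2 change 1.03, SE 0.21; limma adjusted p = 0.0984). Fbxo32, the muscle ubiquitin ligase atrogin-1, was tight in controls at 7.59, 7.46, 7.57 and 7.61, and read 8.36, 8.11, 7.91 and 7.86 in DM. The groups did not overlap (log2 change 0.51, SE 0.12; limma adjusted p = 0.128), while the other muscle ligase of atrophy, Trim63, read 8.53, 8.58, 8.89 and 8.95 in NC and 9.09, 9.06, 8.63 and 8.77 in DM. For Trim63, DM mice 1 and 2 were above the controls and DM mice 3 and 4 among them.

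Bnip3, which marks mitochondria for autophagy, had 8.54 to 8.86 in NC and 8.94 to 9.53 in DM. Sesn1, which restrains mTOR, had 8.22 to 8.48 in NC and 8.49 to 9.28 in DM, and its relative Sesn3 stood lower. Cdkn1b, an inhibitor of the cell cycle, had 7.04 to 7.15 in NC and 7.27 to 7.77 in DM. Eif4ebp1, a brake on translation, was nearly constant in controls at 7.25 to 7.32 and read 7.72, 8.24, 7.59 and 7.42 in DM. Txnip, which rises with glucose and curbs its uptake, had 9.86 to 10.43 in NC and 10.29 to 11.39 in DM.

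The genes of the FoxO factors themselves had smaller differences. Foxo1 read 5.74, 5.51, 5.41 and 5.66 in NC and 6.00, 5.76, 5.49 and 5.64 in DM, with overlapping groups. The 95% interval of the difference was -0.15 to 0.43, so a doubling of the Foxo1 signal lay outside it. Foxo1 lay near background, where the processing compresses differences, so the interval does not bound the change of the transcript. Foxo3 had 5.54 to 5.77 in NC and 5.89 to 6.01 in DM without overlap, and Foxo4 was at background. Insr, the insulin receptor, and Igf1r, the IGF1 receptor, had log2 changes of 0.32 and 0.46, both with overlap.

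Of 37 autophagy genes tested 5 were higher and 0 lower by unadjusted p, against 5.62% and 5.08% of all genes, with a median of 0.02. Without DM mouse 2 or NC mouse 2, 3 were higher. Becn1, which starts autophagosome formation, read 6.10, 6.33, 5.98 and 6.10 in NC and 6.13, 6.07, 6.12 and 6.16 in DM. The groups coincided, with a 95% interval of the difference from -0.21 to 0.19. Map1lc3b, which encodes LC3B, read 8.55, 8.65, 8.64 and 8.71 in NC and 8.99, 9.14, 8.77 and 8.64 in DM. DM mice 1 and 2 stood above the controls and DM mouse 4 among them (log2 change 0.25, SE 0.11; limma adjusted p = 0.44). Transcript levels do not show autophagic flux, which was not measured here.

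Macrophage markers stood higher, with a wide spread between mice. All 17 macrophage markers tested had a positive change, and 7 (41.2%) were higher at an unadjusted p under 0.05. Among these 7, only Lyve1, C1qc and F13a1 had group means above background in NC and in DM. Cd163 and Clec10a had an NC mean at background, and Mpeg1 and Lyz1 had both means there. The list mean lay 0.93, 0.31, 0.38 and -0.04 from the NC mean in DM mice 1 to 4, and the NC mice lay from -0.07 to 0.12. DM mouse 4 thus lay among the controls and DM mouse 1 stood apart. By array, 1 marker was higher without DM mouse 1, 2 without NC mouse 4, 13 without DM mouse 4, 4 with array weights, and 2 on the 3 arrays without atrial signal. Ccl8, a chemokine that resident macrophages make, read 3.44, 3.14, 2.93 and 3.98 in NC and 7.60, 6.12, 6.41 and 3.14 in DM. In DM mice 1, 2 and 3 it was clearly above background, and in DM mouse 4 it was not. Lyve1, found on resident macrophages and lymph vessels, read 7.89, 7.46, 6.54 and 6.56 in DM against 6.26 to 6.75 in NC, and C1qc, a complement gene of macrophages, 7.02, 6.41, 6.60 and 6.06 against 5.85 to 6.20.

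The interferon genes followed another order of mice. The list mean lay 0.20, 0.10, 0.36 and 0.33 above the NC mean in DM mice 1 to 4. Of 29 tested 27 had a positive change and 9 were higher at an unadjusted p under 0.05, against 5.62% of all genes. The count was 3 without NC mouse 2 and 5 without DM mouse 3 or NC mouse 4. Of the 9 genes, Ifit3 alone had both group means above background. Irf3 and Ifih1 were at background in NC. For Irf7, Isg15, Ifit2, Parp14, Gbp2 and Gbp3 both group means were at background. Parp14 had 4.88 to 5.09 in NC and 5.31 to 5.63 in DM and Ifit2 3.56 to 4.49 and 4.60 to 4.86, with 1 value, Parp14 in DM mouse 4, above background. H2-D1, a class I antigen-presenting molecule, had 6.47 to 6.83 in NC and 6.97 to 7.37 in DM without overlap, and 4 of 17 genes of antigen presentation were higher at an unadjusted p under 0.05. Chemokines and cytokines had 5 of 24 higher, or 3 without DM mouse 1, DM mouse 2 or NC mouse 1. The 6 lymphocyte markers tested, all at background, had negative changes of 0.06 to 0.24 in size, 0 of them at an unadjusted p under 0.05.

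Genes of heart muscle load and scarring gave little difference. Of 20 genes of the fetal program 0 were higher and 0 lower by unadjusted p. Nppa, the atrial natriuretic peptide, read 10.29, 8.70, 8.79 and 8.34 in NC and 10.00, 10.51, 5.12 and 8.93 in DM. It was lowest in DM mouse 3, where Myl7 was also at background. In NC mice 2 and 4 Myl7 was at background as well, while Nppa read 8.70 and 8.34. Myh7, the slow myosin of the stressed mouse heart, read 10.27, 9.75, 10.22 and 10.01 in NC and 10.74, 11.58, 10.31 and 9.84 in DM. DM mouse 2 alone stood clearly above the controls (log2 change 0.55, SE 0.28; limma adjusted p = 0.524), and its Myh6 was the lowest of DM at 11.7. Gja1, which encodes the gap junction protein connexin 43, read 9.92, 10.10, 10.18 and 10.03 in NC and 9.20, 9.58, 9.87 and 9.87 in DM, lower without overlap (log2 change -0.43, SE 0.14; limma adjusted p = 0.287).

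Of 37 matrix genes 4 were higher and 4 lower by unadjusted p, against 5.62% and 5.08% of all genes, with a median of -0.01. The higher ones numbered 0 without DM mouse 2, NC mouse 2 or NC mouse 4 and 1 without DM mouse 1, and the lower ones 0 without DM mouse 2 or NC mouse 1, 1 without DM mouse 3 and 2 without DM mouse 1. Among the lower ones, Col6a2 had 6.25 to 6.43 in NC and 5.96 to 6.22 in DM without overlap. Col3a1 had 6.72 to 7.51 in NC and 6.45 to 6.95 in DM and Col1a2 6.17 to 6.58 and 5.86 to 6.40, with overlapping groups for both. Timp4, an inhibitor of matrix proteases, lay on the high side (log2 change 0.68, SE 0.32). Fibroblast markers had 0 of 10 higher and 1 lower.

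Adcy6, the main cardiac adenylyl cyclase, had 7.64 to 7.95 in NC and 7.99 to 8.66 in DM, and Grk5, a kinase that desensitises adrenergic receptors, 6.01 to 6.07 and 6.33 to 7.02. Both were free of overlap, at limma adjusted p-values of 0.245 and 0.246. Of 9 genes of the renin-angiotensin system tested 0 had an unadjusted p under 0.05 in either direction, and the 95% interval for Agtr1a, the main receptor of angiotensin II, was -0.10 to 0.43. Of 24 chaperone genes 5 were lower and 0 higher, or 3 without DM mouse 2, DM mouse 3, NC mouse 3 or NC mouse 4. Hsph1 had 5.82 to 6.89 in NC and 5.40 to 6.03 in DM. Hspa5, the chaperone of the endoplasmic reticulum, had 10.24 to 10.60 in NC and 9.81 to 10.27 in DM.

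**Figure D4:**
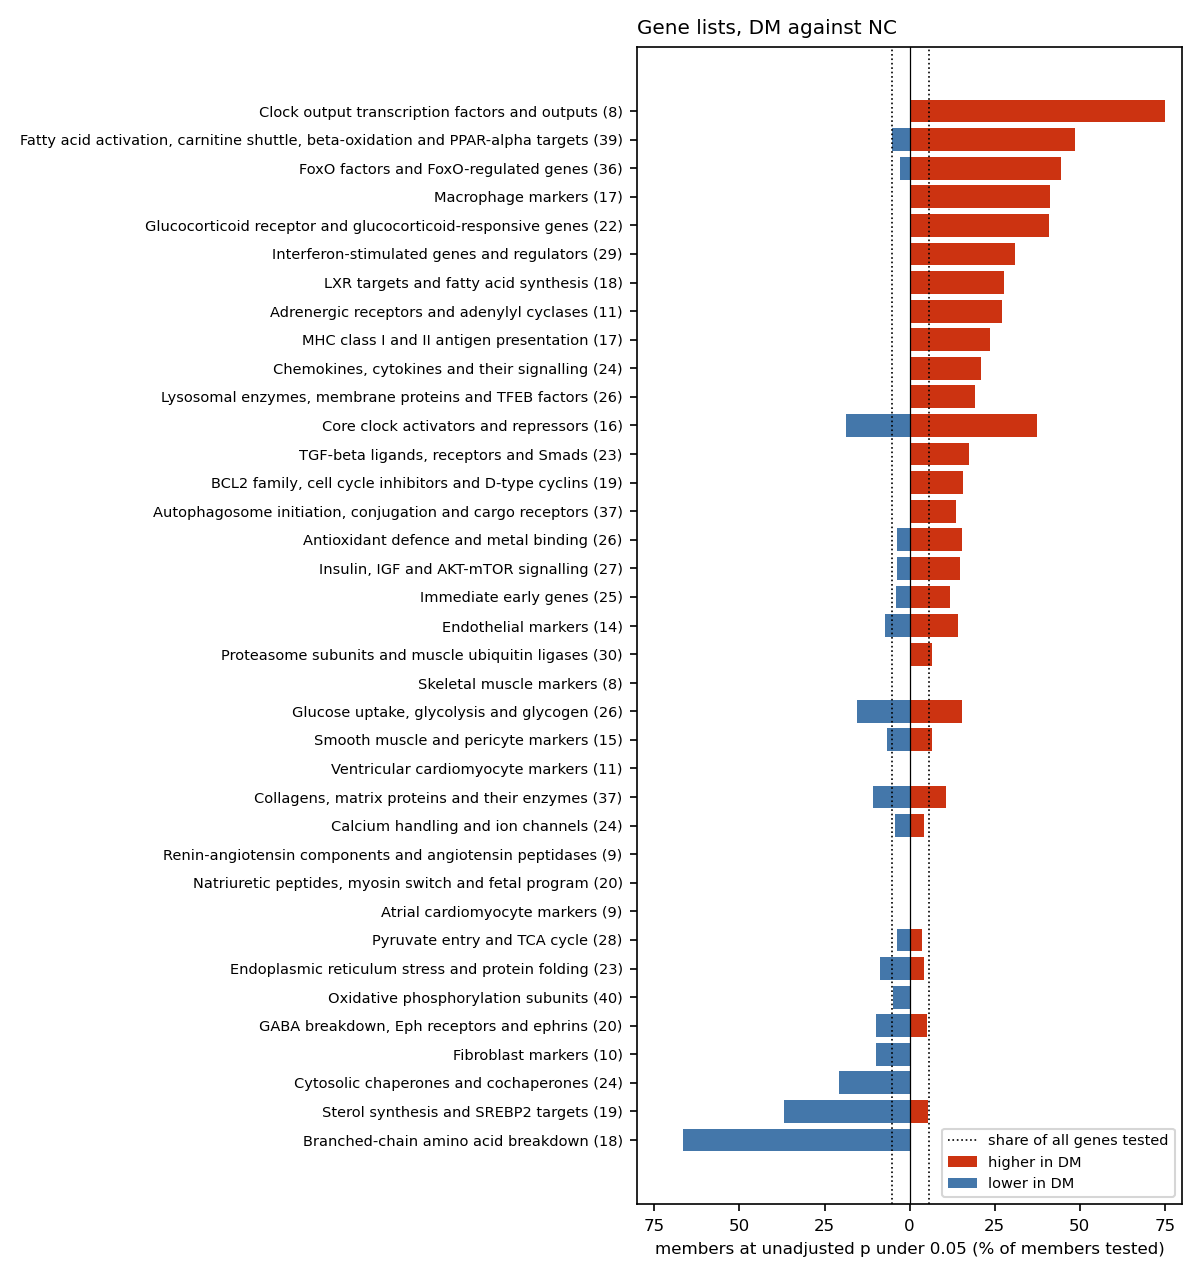
Share of the tested members of each gene list (number tested in parentheses) that were higher (red, right) or lower (blue, left) in DM at an unadjusted p under 0.05, beside the shares of all genes as dotted lines at 5.62% and 5.08%. Clock output, fatty acid, FoxO, macrophage and glucocorticoid genes extend farthest to the right and branched-chain amino acid breakdown farthest to the left, while oxidative phosphorylation and the TCA cycle stay within or near the lines.

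Several lists ranked the diabetic hearts alike. DM mice 1 and 2 lay farther from the control mean than DM mice 3 and 4 for the fatty acid genes (0.54 and 0.36 against 0.30 and 0.15), the FoxO genes (0.48 and 0.41 against 0.11 and 0.10), the glucocorticoid list (1.01 and 0.59 against 0.21 and 0.13), branched-chain breakdown (-0.42 and -0.55 against -0.24 and -0.23) and ketone body use (-0.75 and -0.79 against -0.21 and -0.14). The same 2 mice lay at the low end of the first principal component (-20.3 and -13.3). NC mice 3 and 4 lay about as far out at its high end (25.3 and 16.1). Clock output genes were the most even, at 0.46, 0.55, 0.37 and 0.27. Atrial markers lay at 0.81, 1.30, -1.45 and 0.19 in DM mice 1 to 4 and at 1.62, -0.81, 0.29 and -1.09 in NC mice 1 to 4, so the 2 outer diabetic hearts also carried the most atrial signal of their group. The part of atrial signal in these lists was tested only by the atrial covariate and by leaving arrays out. With the covariate, 12 branched-chain genes were lower at an unadjusted limma p under 0.05, against 12 without it. Higher were 18 fatty acid, 15 FoxO, 9 glucocorticoid and 6 clock output genes, against 19, 16, 9 and 6 without it. No blood glucose or body weight of single mice was used here, and the order of the mice was not tested against any.

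**Figure D5:**
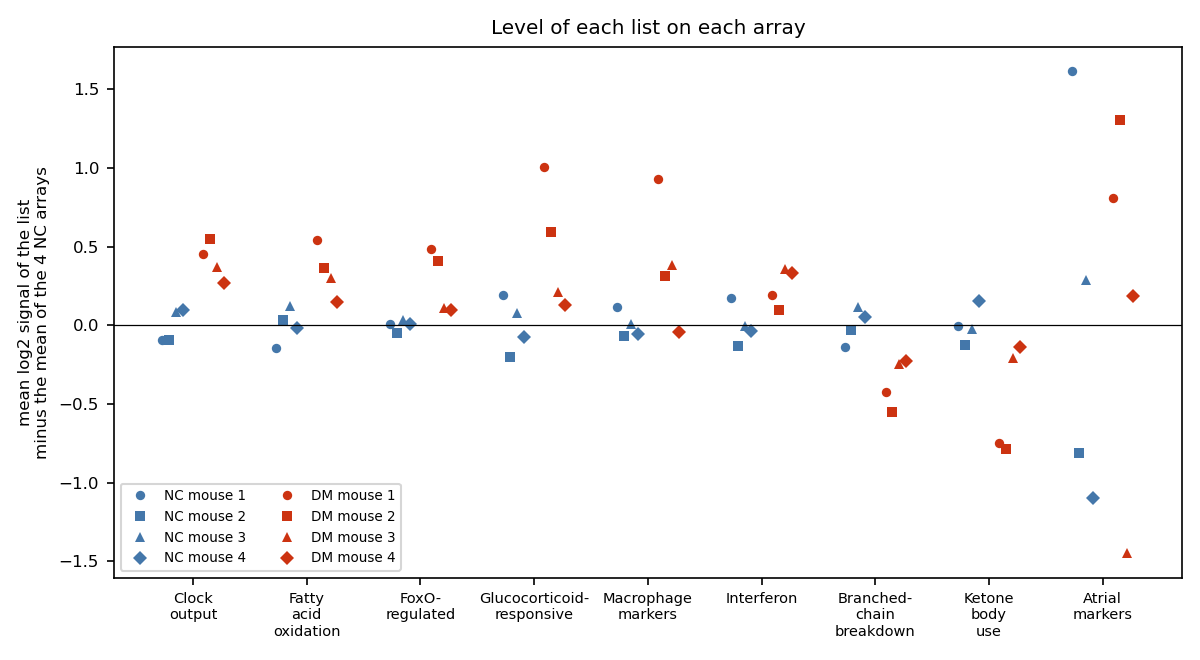
Mean log2 signal of 9 gene lists on each NC (blue) and DM (red) array minus the mean of the 4 NC arrays (y axis), with a symbol for each mouse number. Branched-chain, fatty acid, FoxO and clock output genes separate all 4 DM mice from all 4 NC mice, macrophage markers and the glucocorticoid list do not, and the atrial markers scatter in both groups.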

How the data were processed

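Single-colour Affymetrix arrays measured total RNA of mouse myocardium, extracted with Trizol, of which 6 µg were labelled with biotin as cRNA, per the labels' protocols. The authors deposited log2 signals of probe sets, computed by RMA (background correction, quantile normalization and a summary over probes), per the submitters' processing notes, with the log2 scale read from the values. Versions and build are not given in the sources used here. Because arrays share their quantiles, a change in total RNA is hidden, and RMA compresses differences near background.

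Control probe sets (6923 of 29129) and the 2634 transcript probe sets without a symbol were left out. The 19572 with 1 symbol in the platform annotation gave 19505 genes, each by its probe set of highest mean over 12 arrays (55 genes had several), and the dimmest 30% (mean under 3.40) were dropped. A gene with a group mean under the 95th percentile of negative control signals (5.39 to 5.60 by array) has no fold. This held for 30 of the 128 genes considered for the text.

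Groups came from the titles. limma 3.58.1 (R 4.3.3; lmFit, eBayes) fitted 3 group means over 12 arrays, with two-sided p-values adjusted by Benjamini-Hochberg over 13653 genes, and was tested on simulated data. The median SE was 0.127. Log2 changes are DM minus NC. Lists (43, naming 941 genes, 791 tested; some share genes) were described by counts and medians without a set test. The genes compared and the lists were chosen with earlier results of these data known. Named genes were those called, the 40 of smallest p, the 15 largest differences each way among non-overlapping genes above background, the 5 of smallest p each way in each list, and fixed heart, FoxO, clock and marker genes. Same-numbered NC and DM mice correlated at 0.11, -0.10, 0.05 and -0.03 in their deviations from the group means, so numbers were not taken as pairs. Alternatives were the samples fitted, the prior, the filter, probe sets, centring, weights, the replicate block, an atrial covariate and leaving out each array. One alternative, leaving out the arrays with atrial signal, was added after seeing the data. Promoter windows came from RefSeq (GRCm38.p6).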

Additional observations from a re-analysis of the deposited data

Results flagged for a closer look

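Among 286 groups of 4 arrays checked, 9 held 1 array far from the other 3, and chance sets apart about 5% of such groups. In control hearts, Mt1 stood high in NC mouse 2 at 9.87 against 9.69 to 9.72 in the other 3, Sqstm1 (a cargo receptor of autophagy) stood low in NC mouse 2 at 9.09 against 9.28 to 9.30, and Echs1 stood low in NC mouse 1 at 9.51 against 9.75 to 9.78. In diabetic hearts, Bckdha stood high in DM mouse 4 at 8.43 against 8.22 to 8.25, Npas2 low in DM mouse 4 at 3.64 against 4.01 to 4.08, and the mean of the chaperone list high in DM mouse 4 at 7.78 against 7.67 to 7.68. Wee1 stood high in DM mouse 1 at 6.48 against 5.88 to 5.96, Myh6 (the fast myosin of the mouse ventricle) low in DM mouse 2 at 11.7 against 11.9 in the other 3, and Ace (angiotensin-converting enzyme) low in DM mouse 3 at 6.10 against 6.44 to 6.49.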

How the results depend on the processing

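The number of calls depended on settings while Arntl, Abat and Epha4 were called under each of 18 other settings listed with the methods. It was 5 with the 8 NC and DM arrays alone, 29 with an intensity trend in the prior (20 higher, 9 lower), 20 without the dimmest 50% of genes (14 higher, 6 lower), 24 among genes above the negative controls (17 higher, 7 lower), 5 with the atrial covariate, 3 to 30 without single arrays, and 0 without the arrays with atrial signal. The filtered settings also tested fewer genes, and what made the counts differ was not tested. Titles share replicate numbers, and with the replicate block 3 genes were called, the same 3. Among genes above the negative controls, unadjusted p under 0.05 gave 509 higher, and 255 were higher without overlap. Without the arrays with atrial signal the counts at an unadjusted p under 0.05 were 349 higher and 381 lower over all genes, 4 lower for branched-chain breakdown, and higher in 2 of clock output, 3 of fatty acid, 1 of FoxO, 4 of glucocorticoid and 2 of macrophage genes; that setting keeps 3 of the 8 arrays. Array weights gave 4 macrophage markers higher and the atrial covariate 6, against 7 in the main fit. Core clock genes higher numbered 6 with the atrial covariate and 6 in the main fit.

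Without single arrays the ranges were 577 to 918 genes higher and 535 to 807 lower at an unadjusted p under 0.05, 521 to 781 higher and 457 to 795 lower without overlap, 9 to 13 for branched-chain breakdown, 4 to 7 for core clock genes higher, 5 to 6 for clock output, 12 to 23 for fatty acid genes, 10 to 17 for FoxO, 6 to 10 for glucocorticoid and 1 to 13 for macrophage markers. Of the genes named, 25 values changed sign, all of genes that were not called. Without single arrays the log2 change ran from -0.13 to 0.23 for Nr1d1, -1.01 to 0.79 for Nppa, -0.0566 to 0.0576 for Becn1, -0.0033 to 0.20 for Tgfb1, -0.0585 to 0.0259 for Myh6, -0.38 to 0.0045 for Nfil3 and -0.0368 to 0.0248 for Acat1. Becn1 read 0.0059 with array weights, and Acat1 0.00034 with centred arrays and 0.0029 with the atrial covariate. Without the arrays with atrial signal Foxo1 read -0.0934, Trim63 -0.134, Myh6 0.0347, Agtr1a -0.0957, Myl7 -0.0218 and Acat1 0.0327. With 4 mice a group the median SE of a log2 change was 0.127, and signals below 5.39 to 5.60, by array, lie within the negative controls.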

Other observations

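Cyp1a1 and Retnla lay outside the lists and were chosen after their values were seen. Cyp1a1, a cytochrome P450 induced through the aryl hydrocarbon receptor, read 3.19, 2.81, 2.42 and 2.10 in NC mice 1 to 4 and 5.93, 4.70, 5.30 and 4.78 in DM mice 1 to 4. All 4 diabetic hearts were above all 4 controls (log2 change 2.54, SE 0.68; limma adjusted p = 0.194), but both group means were at background, and of the 8 hearts DM mouse 1 alone was above it. In the AngIV hearts, diabetic too, it read 3.43, 5.67, 5.52 and 8.30. Retnla, a secreted protein of alternatively activated macrophages and fat, went the opposite way from the macrophage markers, with 6.16, 6.94, 6.55 and 5.25 in NC and 3.76, 3.98, 4.70 and 5.91 in DM. DM mouse 4 lay within the control range and the other 3 below it (log2 change -1.63, SE 0.41; limma adjusted p = 0.164).

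Fat cell markers were mostly at background: of 7 tested, 1 lay above the negative controls in both groups. This was Cidea, a lipid droplet protein, with 6.86, 6.36, 6.74 and 6.98 in NC and 7.26, 7.36, 7.43 and 7.14 in DM. All DM hearts lay above all controls (log2 change 0.56, SE 0.14; limma adjusted p = 0.169). The other 6 had negative changes. Adipoq, the adiponectin gene of fat cells, read 4.48, 3.08, 3.44 and 4.43 in NC and 3.59, 2.96, 2.97 and 3.12 in DM, all below the negative control level.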
